A study of Mus musculus with 24 samples.

Results

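The 6 miRNAs described here are mmu-miR-154*, mmu-miR-541, mmu-miR-409-5p, mmu-miR-409-3p, mmu-miR-369-5p and mmu-miR-410, taken by name from 611 mouse miRNA names on the array (650 names in all). They come from the last hairpins of the miR-379 to miR-410 cluster in the imprinted Dlk1-Dio3 region of mouse chromosome 12. A miRNA was tested if at least 1 age had it detected on each of its arrays. All 6 met this and were among the 322 miRNAs tested. They were measured in total RNA of whole lung from C57BL/6 mice on 24 Agilent 1-colour arrays. Postnatal days 1, 4, 7 and 14 have 5 arrays each, and the age of 6 weeks, written below as day 42, has 4. No treatment or genotype other than the strain is named, and day 1 is the reference age. The series title speaks of fetal lung, whereas the label of each sample gives an age after birth, and those ages were used. The labels call each array a biological replicate without saying whether a lung came from 1 animal or a pool.

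A miRNA is a short RNA, cut from a hairpin precursor, that lowers the output of the messages it pairs with. Pairing rests mainly on the seed, bases 2 to 8 of the mature strand, and each hairpin can yield a 5p and a 3p strand. The Dlk1-Dio3 cluster is transcribed from the maternal chromosome as part of long noncoding RNAs, is known for high levels in embryo, placenta and brain, and falls after birth in many tissues. Mouse pups are born with simple air sacs that are divided into alveoli during the first weeks of life, the period these ages cover.

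In the whole lung, all 6 miRNAs were clearly measured through day 7, dropped between day 7 and day 14, and were at or close to background at day 42. At day 14, the 3 that were still detected on all 5 arrays held 15.4% (miR-410), 18.9% (miR-369-5p) and 19.4% (miR-409-5p) of their day 1 level, and the other 3 were detected on 1 to 3 arrays. At day 42, 5 of the 6 were detected on none of the 4 arrays, and the sixth, miR-410, on 2 of them. Bulk RNA cannot tell fewer cells that make these miRNAs from less miRNA per cell.

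The mature sequences are shown because the 6 share a locus and a time course but not a seed. They were read from RefSeq's annotation of GRCm38.p6, with an entry for 6 of 6 names. Old array names were paired with the current names by hand, and no probe sequence was at hand to check the pairing. Each is written 5′ to 3′ with its seed in capitals. The array uses older names: miR-154* is the 3p strand of its hairpin, miR-541 the 5p strand and miR-410 the 3p strand.
miR-154*: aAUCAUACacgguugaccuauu
miR-541: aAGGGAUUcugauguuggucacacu
miR-409-5p: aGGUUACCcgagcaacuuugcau
miR-409-3p: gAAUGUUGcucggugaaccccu
miR-369-5p: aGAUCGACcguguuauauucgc
miR-410: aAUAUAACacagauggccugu

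No pair of the 6 shares a seed. Among 1738 mature mouse miRNAs in the table, only miR-410 has partners with its seed, mmu-miR-344d-3p and mmu-miR-344e-3p. The closest pair by edit distance is miR-154* and miR-410, which differ by 7 edits over 22 and 21 bases and both begin with AAU. The other 14 pairs differ by 10 to 15 edits. The 6 are 21 to 25 bases long with a GC content of 36.4% (miR-154*) to 54.5% (miR-409-3p).

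The hairpins lie on the plus strand of chromosome 12 within the noncoding host gene Mirg. From Mir154 at chr12:109738433-109738498 through Mir496a, Mir377, Mir541, Mir409, Mir412 and Mir369 to Mir410 at chr12:109743715-109743795, 8 hairpins span 5363 bp. The whole miR-379 to miR-410 cluster has 36 hairpins over 34736 bp in the same annotation. The hairpin of Mir409, chr12:109743158-109743236, gives 2 of the 6 miRNAs. It is shown with the 5p and then the 3p strand in capitals.
Mir409: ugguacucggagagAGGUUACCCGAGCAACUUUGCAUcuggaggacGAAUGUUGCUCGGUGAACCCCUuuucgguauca

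Values are scaled signals. For each array the background-subtracted spot signals of a miRNA's probes were averaged over spots, summed over probes and divided by that array's 75th percentile over the 228 miRNAs detected on all arrays. Each array's weakest detected miRNA was found, and the median of these scaled signals, 7.24 (log2 2.86), served as a floor to which lower values were raised before log2 was taken. Detection is the flag in the deposited files, and its limit differs between arrays, so that a signal above the floor can be undetected. Signals of different miRNAs cannot be set against each other, because each has probes of its own.

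Before scaling, arrays differed in brightness from 923 to 4953 intensity units at the 75th percentile, with a median of 1571 at day 1 and 3270 at day 42. The 3 slides of 8 arrays each held all 5 ages. Marker miRNAs of lung epithelium (6 of 6), endothelium (2 of 2), mesenchyme (5 of 5) and leukocytes (6 of 6) were detected on all 24 arrays. Of 3 brain miRNAs, miR-124 was detected on 0 arrays, miR-9 on 2 and miR-219 on 21, and the liver miRNA miR-122 was detected on 8. Over the 322 miRNAs tested, 138 fell and 61 rose from day 1 to day 42; this split depends on the scaling, and with the percentile taken over all names 78 of 203 calls were falls.

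One array stood apart, day 14 replicate 5. Its median correlation over the tested miRNAs was 0.986 with the day 7 arrays and 0.978 with the other day 14 arrays, while the other 4 day 14 arrays reached 0.955 to 0.965 with day 7 and 0.987 to 0.991 with day 14. For all 6 miRNAs it gave the highest day 14 signal, 1.98 (miR-409-5p) to 3.03 times (miR-154*) the mean of the other 4. It was the highest day 14 array for 35 of 36 other tested miRNAs of the region and for 122 of all 322, and the lowest for 83. For each of the 6 it still lay below every day 7 array. The changes of the 6 into and out of day 14 are therefore also given without this array. Ranges over probes, slides and correlations include it.

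The miR-154 hairpin is the most upstream of the group, and its strands have been studied in lung fibroblasts as TGF-beta responsive miRNAs. At day 1, miR-154* gave scaled signals of 112, 109, 124, 60.1 and 84.5. The day 4 arrays read 53.4, 72.3, 63.8, 64.9 and 66.1, and the day 7 arrays 65.2, 65.1, 61.2, 63.5 and 72.4. At day 14 the arrays read 12.3, 12.4, 14.4, 10.8 and 37.8, of which only the third and the fifth were detected. The day 1 array at 60.1 was the dimmest of its age and overlapped days 4 and 7, whereas day 14 lay wholly below day 7. At day 42 none of the 4 arrays detected miR-154*, with signals of 7.87, 4.21, 5.60 and 6.56 around the floor. Its level at day 42 was at least 12.4-fold below day 1 if undetected arrays are held at the limit defined under processing. The fit on floored values gave an adjusted p of 1.8e-11 (limma). That limit is not the miRNA's own, since at day 14 miR-154* was undetected at signals up to 12.4.

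The miR-541 hairpin lies between Mir377 and Mir409. miR-541 read 117, 104, 109, 145 and 145 at day 1. At day 4 it read 106, 82.7, 94.4, 69.2 and 64.0, and at day 7 it read 61.1, 59.1, 59.1, 78.8 and 81.1. Days 1 and 7 did not overlap, and day 4 spanned both. At day 14 the signals were 11.5, 13.5, 13.6, 10.66 and 37.2, detected on 3 of 5 arrays. At day 42 they were 8.94, 1.44, 4.22 and 9.35, detected on none. By the same limit the fall from day 1 to day 42 was at least 15.1-fold (limma on floored values, adjusted p = 7.0e-12). Here too the limit is not the miRNA's own, since at day 14 miR-541 was undetected at signals up to 13.5.

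The miR-409 strands have been studied for their part in the change of epithelial cells to a mesenchymal form. miR-409-5p read 156, 132, 119.95, 161 and 154 at day 1. At day 4 it read 119.9, 87.2, 109, 76.3 and 75.2, so that its highest day 4 array came close to its lowest day 1 array without overlap. At day 7 it read 66.1, 69.6, 72.4, 82.1 and 87.6. It remained detected on all 5 day 14 arrays, at 24.3, 21.9, 30.2, 21.3 and 48.3, and on no day 42 array, where the raw scaled signals were 4.86, 2.03, 1.87 and 2.501. The day 42 level was, by the same limit, at least 19.2-fold below day 1 (limma on floored values, adjusted p = 2.1e-14). No array of day 14 or day 42 overlapped a younger age.

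The other strand, miR-409-3p, read 80.7, 70.8, 79.9, 128 and 121 at day 1. At day 4 the arrays were at 90.9, 55.7, 79.0, 46.3 and 42.5, a wider spread than at day 7, where they were at 40.5, 38.4, 34.8, 46.9 and 55.6. At day 14 only replicate 5, at 22.3, was detected, and the other 4 arrays read 8.67, 5.82, 8.84 and 6.51. At day 42 the signals were 3.73, 1.65, 1.24 and 0.28, with none detected. The fall from day 1 was, by the same limit, at least 12.5-fold (limma on floored values, adjusted p = 6.6e-11). That limit is again not the miRNA's own, since at day 14 miR-409-3p was undetected at signals up to 8.84.

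The 5p strand of miR-369, whose hairpin lies next to the last, read 137, 115, 109, 151 and 142 at day 1. It read 119, 83.0, 99.2, 70.2 and 71.5 at day 4 and 61.6, 60.2, 62.8, 70.7 and 75.8 at day 7. At day 14 it was detected on all 5 arrays at 19.6, 23.3, 25.1, 18.1 and 42.7. At day 42 it was detected on none, at 5.12, 3.40, 4.71 and 8.23. Days 1 and 4 overlapped at their edges, and days 7, 14 and 42 each lay wholly below day 1. Its day 42 level was, by the same limit, at least 17.3-fold below day 1 (limma on floored values, adjusted p = 5.5e-14).

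miR-410 is cut from the hairpin that closes the cluster. It read 367, 352, 344, 275 and 298 at day 1, 223, 208, 240.3, 199.5 and 185 at day 4, and 179, 179, 182, 189 and 215 at day 7. It was detected on all 5 day 14 arrays, at 38.3, 40.6, 53.3, 32.3 and 116. At day 42 replicates 1 and 2, at 23.3 and 13.8, were detected and replicates 3 and 4, at 10.01 and 8.29, were not. The day 4 arrays lay wholly below the day 1 arrays, and days 4 and 7 overlapped. The mean log2 level fell by 4.67 ± 0.28 (SE) from day 1 to day 42, a 25.4-fold difference (adjusted p = 1.8e-12).

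**Figure D1:**
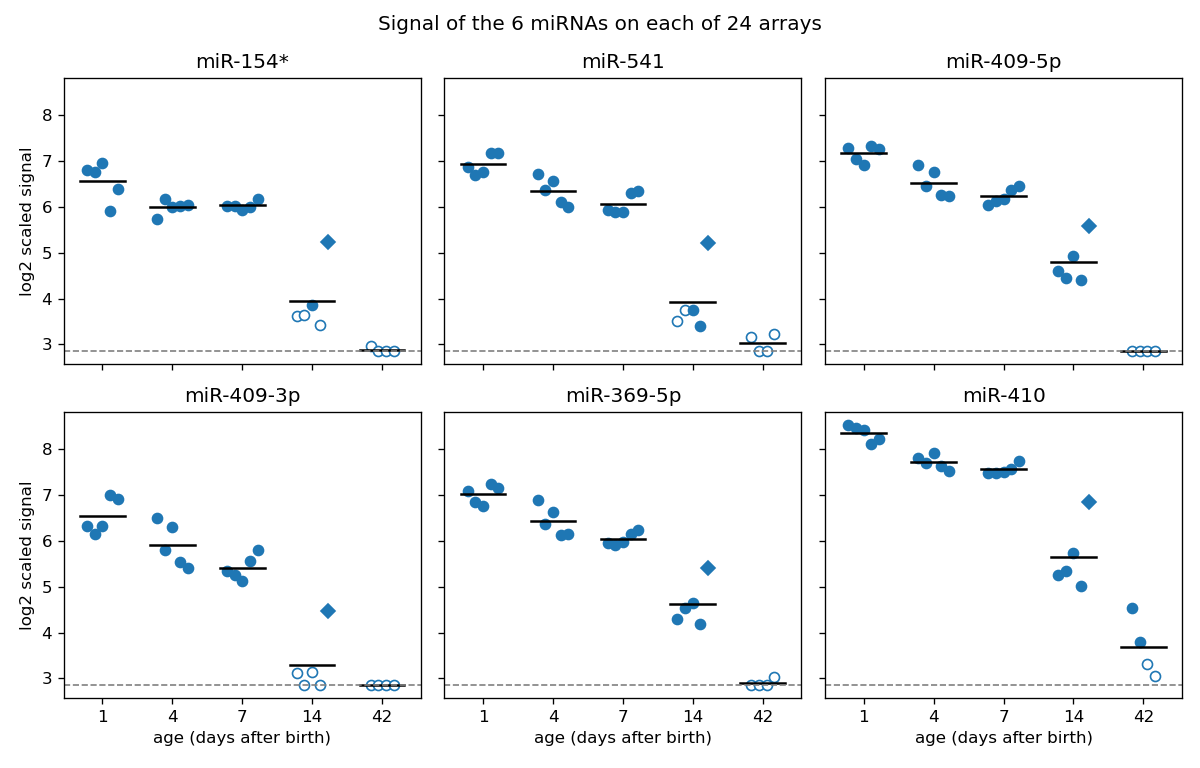
Log2 scaled signal of each of the 6 miRNAs (vertical axis) on every array at each age in days after birth (horizontal axis, ages evenly spaced). Filled symbols were detected and open ones were not, the diamond is day 14 replicate 5, short bars are means of 5 arrays (4 at day 42) and the dashed line is the floor at 2.86; in every panel the diamond lies above the other day 14 arrays, and at day 42 only 2 arrays of miR-410 are filled.

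Tested over the 5 ages together, all 6 changed (limma F-test, adjusted p = 8.4e-14 to 3.6e-11), where 65.5% of the tested miRNAs did. From day 1 to day 42 all 6 fell, against a background of 42.9% of tested miRNAs that fell. Their median log2 change was -4.02, and that of all tested miRNAs was -0.35. In that median the floor sets all 4 day 42 values of miR-409-5p and miR-409-3p. It sets 3 of 4 for miR-154* and miR-369-5p and 2 of 4 for miR-541. The arrays of day 42 lay wholly below those of day 1 for all 6, and for 26.4% of the tested miRNAs.

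The ordering of ages differed little among the 6. Levels ran day 1, day 4, day 7, day 14 and day 42 from high to low for 5 of them, and for miR-154* day 7 stood just above day 4. None of the differences between neighbours among days 1, 4 and 7 in that order passed the threshold (limma, adjusted p = 0.090 to 0.95). Each of the 6 then dropped by day 14, and 5 of the 6 dropped again by day 42.

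Between day 1 and day 4 all 6 log2 changes were negative, from -0.57 (miR-154*) to -0.64 (miR-409-5p), with SE from 0.18 to 0.27. None passed the threshold of 0.05 (limma, adjusted p = 0.090 to 0.27, unadjusted p = 0.0020 to 0.028). Of all tested miRNAs, 0.932% fell in this step, and the median change of all was 0.03. The day 4 arrays lay wholly below the day 1 arrays for 2 of the 6, miR-409-5p and miR-410 (background 3.42%). The array that stands apart enters this comparison through the shared estimate of spread: without day 14 replicate 5, 4 of the 6 passed, miR-409-5p (adjusted p = 0.0091), miR-369-5p (0.028), miR-154* (0.029) and miR-541 (0.029). In that fit 10 of the 322 tested miRNAs fell. Without day 4 replicate 1, a dim array, 2 passed, where 6 of the 322 fell. From day 4 to day 7 no change passed (limma, adjusted p = 0.68 to 0.95, background 0.311%), and the values lay between -0.50 for miR-409-3p and 0.03 for miR-154*.

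Over the first week as a whole, day 7 against day 1, 5 of the 6 fell, against a background of 10.6%. The change was -1.13 ± 0.27 for miR-409-3p (SE, adjusted p = 0.0077), -0.97 ± 0.19 for miR-369-5p (adjusted p = 0.0017) and -0.93 ± 0.18 for miR-409-5p (adjusted p = 0.0019). It was smaller for miR-541, -0.87 ± 0.25 (adjusted p = 0.019), and for miR-410, -0.79 ± 0.27 (adjusted p = 0.047). miR-154*, at -0.54 ± 0.24, did not pass (adjusted p = 0.12) and was the 1 of the 6 whose day 7 arrays overlapped day 1 (background without overlap 10.9%). This is the least firm of the counts: it went down to 3 without day 1 replicate 4, day 1 replicate 5, day 7 replicate 2 or day 7 replicate 3, and up to 6 without day 14 replicate 5. Of the 322 tested miRNAs, 20 to 27 fell in the fits that gave 3, and 40 in the fit that gave 6. Without scaling between arrays none of the 6 passed, where 2 of the 322 fell.

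The second week was the first step in which all 6 passed. From day 7 to day 14 the log2 level fell by 2.14 ± 0.25 for miR-541 (adjusted p = 7.2e-07), fell by 2.12 ± 0.27 for miR-409-3p (adjusted p = 1.7e-06) and fell by 2.07 ± 0.24 for miR-154* (adjusted p = 7.2e-07). Those 3 ended the step detected on 3, 1 and 2 of 5 arrays. miR-409-3p was at the floor on 2 day 14 arrays, which limits how far it could be seen to fall. The undetected day 14 signals of miR-541 and miR-154* lay above the floor and entered the fit as read. miR-410, measured on all arrays of both ages, fell by 1.92 ± 0.27 (adjusted p = 6.0e-06). miR-409-5p fell by 1.44 ± 0.18 (adjusted p = 2.1e-06) and miR-369-5p fell by 1.43 ± 0.19 (adjusted p = 2.6e-06). All 6 passed where 23.9% of tested miRNAs fell, and the median change of all tested was -0.05. In this step every day 14 array lay below every day 7 array for all 6, which held for 25.2% of the tested miRNAs.

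Without day 14 replicate 5 the same step grew to -2.46 for miR-541, -2.42 for miR-409-3p, -2.40 for miR-154*, -2.22 for miR-410, -1.64 for miR-409-5p and -1.63 for miR-369-5p. All 6 still passed, where 81 of the 322 tested miRNAs fell. With normexp background correction none of the 6 passed, where 3 of the 322 fell, and 5 changes turned to 0.0065 to 0.12. With the local background held at its 99th percentile, which mends that fit on 2 arrays, 5 of the 6 passed. Against day 1, day 14 stood at -3.25 ± 0.27 for miR-409-3p, -3.01 ± 0.25 for miR-541 and -2.37 ± 0.18 for miR-409-5p, with the other 3 in between. All 6 of these passed too (adjusted p = 3.6e-10 to 1.7e-08; background 32.6%, without overlap 21.4%), and without replicate 5 the changes ran from -3.55 for miR-409-3p to -2.57 for miR-409-5p. The fitted value of miR-409-3p, detected on 1 of 5 day 14 arrays and on 0 of the other 4, is limited by the floor.

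Between day 14 and day 42 the size of a fall is given for the 3 miRNAs still detected on all day 14 arrays. miR-410 fell by 1.97 ± 0.28 (limma, adjusted p = 9.6e-06). It was detected on 2 of 4 day 42 arrays, so this is a fitted value and not a bound. With undetected arrays held at the limit defined under processing, miR-409-5p was at least 3.71-fold lower and miR-369-5p at least 3.28-fold lower. The fits on floored values gave adjusted p = 1.9e-07 and 9.4e-07 for these 2 (limma). The day 14 signals of miR-154* and miR-541, detected on 2 and 3 of 5 arrays, were already near the floor. Their fitted changes were -1.07 (adjusted p = 0.0023) and -0.91 (adjusted p = 0.0089), and no fold is given since both ages rest on undetected arrays. miR-409-3p, detected on 1 of 5 and then 0 of 4 arrays, did not pass (adjusted p = 0.28). In all, 5 of 6 fell against a background of 28%, and the same 5 did not overlap (background 26.1%). Without day 14 replicate 5 the same 5 passed, with fitted changes from -1.74 for miR-409-5p to -0.59 for miR-541, where 79 of the 322 tested miRNAs fell. With a floor 2 times higher 3 of the 6 passed (73 of the 322 fell), and with normexp none did (19 of the 322 fell). With the local background held none of the 6 passed either. All 6, miR-409-3p included, passed with a floor 2 times lower, with no scaling, with the software's total signal and in the deposited table. In those settings 58 to 95 of the 322 fell. Of the slides, 17 of 18 within-slide values of this step were below 0, and the other was 0, with both ages at the floor.

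**Figure D2:**
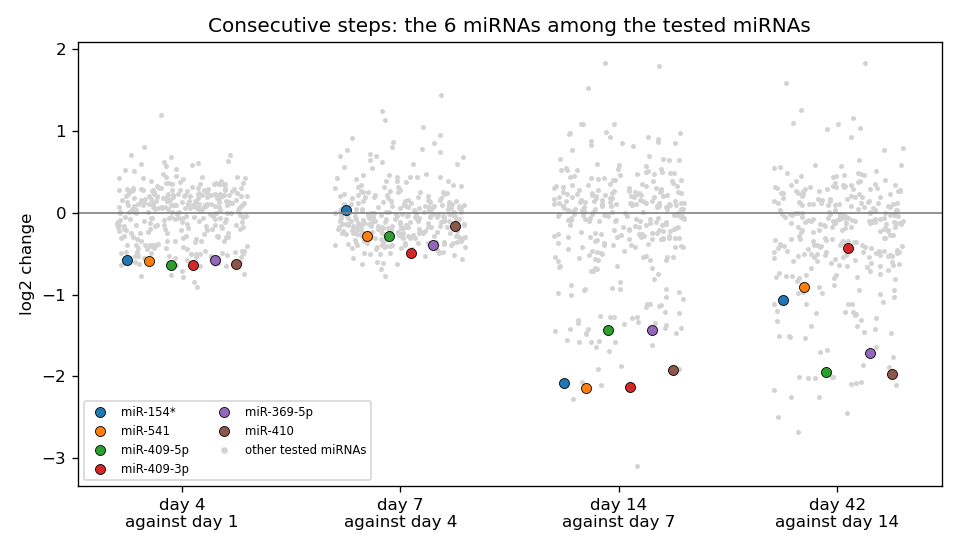
Log2 change (vertical axis) in the 4 consecutive steps between ages (horizontal axis) for the 6 miRNAs, coloured, among the other tested miRNAs, in grey. In the step from day 7 to day 14 the 6 lie between -2.14 and -1.43; in the first step they lie between -0.64 and -0.57.

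**Figure D3:**
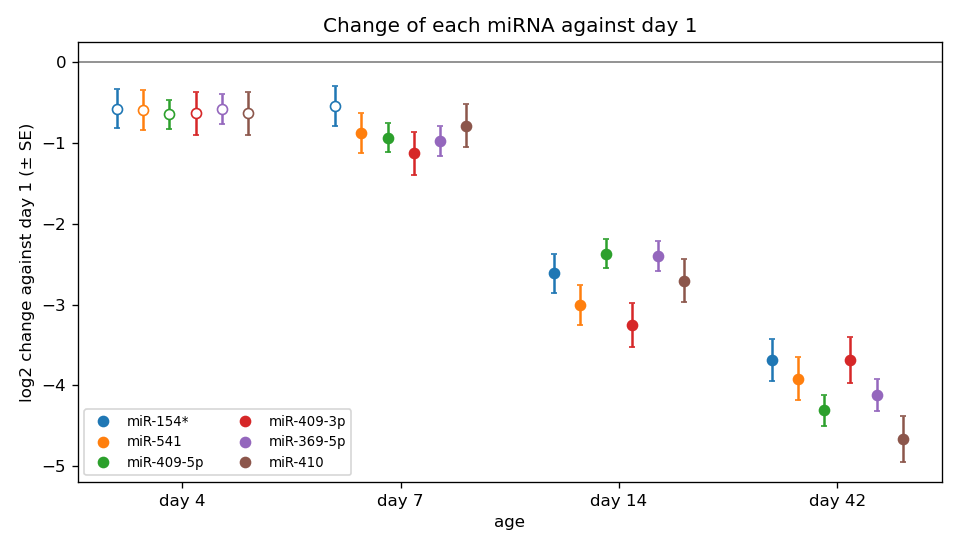
Log2 change against day 1 (vertical axis) of each of the 6 miRNAs at the later ages (horizontal axis), with bars for the SE of the limma fit; filled points passed an adjusted p of 0.05. None is filled at day 4, 5 are filled at day 7 and all 6 at days 14 and 42. At day 42 the values of the 5 undetected miRNAs are set by the floor in whole or in part.

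The 2 strands of miR-409 come from 1 hairpin, and the ratio of their signals within an array cancels the scaling wherever both lie above the floor. On 2 of 5 day 14 arrays miR-409-3p was at the floor, so the day 14 ratio depends on it. The log2 ratio of 3p to 5p averaged -0.62 ± 0.29 on the 5 arrays of day 1 (SD). On day 4 it averaged -0.61 ± 0.18, on day 7 it averaged -0.82 ± 0.16 and on day 14 it averaged -1.51 ± 0.24 (SD, 5 arrays each). Only its change has a meaning, since the strands have different probes. Against day 1 the ratio moved by 0.01 at day 4 and by -0.20 at day 7 (exact permutation tests, two-sided, p = 0.95 and 0.24; adjusted over 4 ages p = 1.0 and 0.48). At day 14 it was lower by 0.88, with no overlap between the 5 arrays of each age (exact permutation test, two-sided, p = 0.0079, the smallest that 5 against 5 allow; adjusted p = 0.032). The 3p strand was detected on 1 of 5 day 14 arrays, without that array, replicate 5, the difference was -0.98, and with a floor 2 times higher it was -0.19 (exact permutation p = 0.27). At day 42 neither strand was detected, so no ratio was formed. The 2 strands also moved with array brightness, by -0.52 ± 0.18 (3p) and -0.26 ± 0.13 (5p) per doubling (SE). Median brightness was 1571 at day 1 and 2713 at day 14. The part of brightness in the change of the ratio was not tested.

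Each miRNA is read by 2 probes, and both gave the same course. For day 42 against day 1 the 12 probes taken alone gave changes of -4.70 to -3.52, and for day 14 against day 7 of -2.16 to -1.36, all on the same side of the threshold as the sum. One probe of miR-541 lost the call for day 42 against day 14, at -0.52 (adjusted p = 0.14). Within single slides, each with 1 or 2 arrays of an age, all 18 values of day 42 against day 1 lay between -5.27 and -3.29, and all 18 of day 14 against day 7 between -2.67 and -0.92.

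The signal of some of the 6 also moved with array brightness. Within days 1, 4 and 7, where all arrays detected all 6, the correlation of the log2 scaled signal with log2 brightness, each taken as the deviation from the mean of its age over 15 arrays, was -0.91 for miR-369-5p, -0.91 for miR-409-3p, -0.86 for miR-409-5p and -0.86 for miR-541. It was 0.79 for miR-154* and 0.10 for miR-410. In a fit over all 24 arrays with brightness as a covariate, a doubling of brightness went with -0.52 ± 0.18 for miR-409-3p (SE, adjusted p = 0.016), -0.47 ± 0.17 for miR-541 (adjusted p = 0.018) and -0.36 ± 0.13 for miR-369-5p (adjusted p = 0.015), and these slopes passed. Those of miR-409-5p (-0.26 ± 0.13, adjusted p = 0.096), miR-154* (0.18 ± 0.19, adjusted p = 0.40) and miR-410 (0.04 ± 0.22, adjusted p = 0.87) did not. Of the 322 tested miRNAs, 215 had a slope that passed. With that covariate 2 of the 6 fell from day 1 to day 7, where 14 of the 322 tested miRNAs did. All 6 fell from day 7 to day 14, where 90 of the 322 did, and the median change of the 6 in this step was -1.93.

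**Figure D4:**
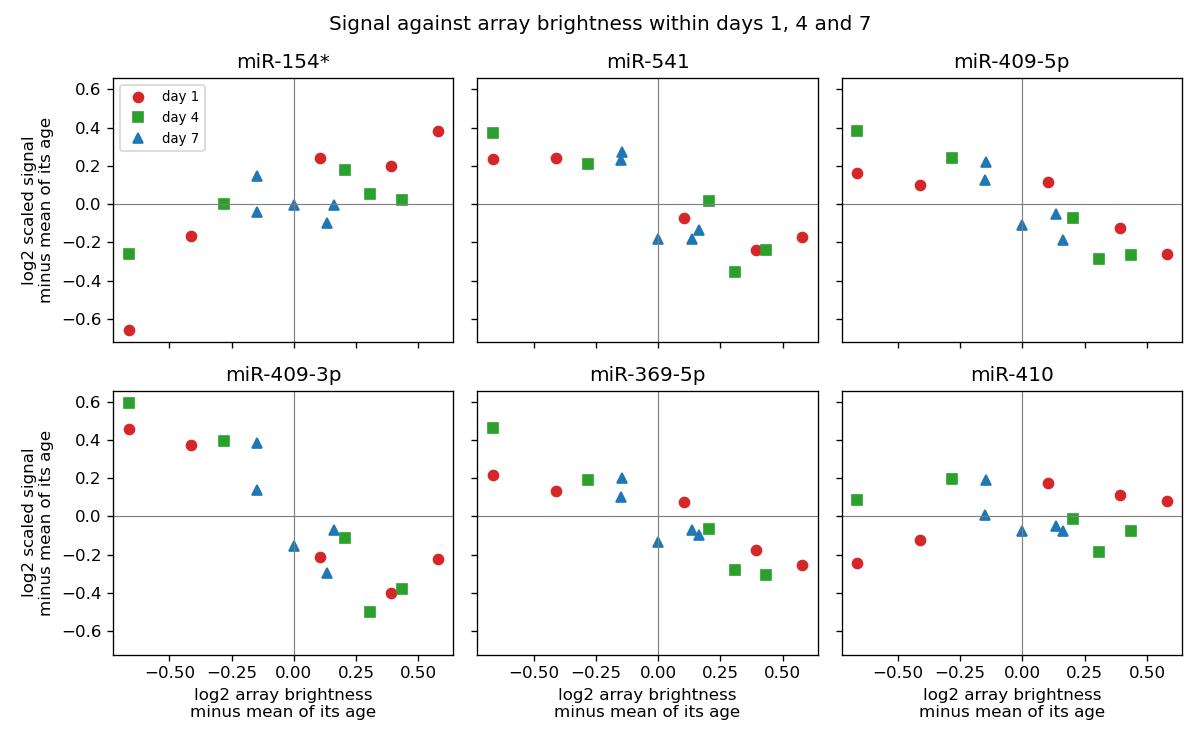
Log2 scaled signal (vertical axis) against log2 brightness of the array before scaling (horizontal axis), each minus the mean of its age, for the 15 arrays of days 1, 4 and 7. The points fall to the right for miR-541, miR-409-5p, miR-409-3p and miR-369-5p (r = -0.91 to -0.86), rise for miR-154* (r = 0.79) and show little slope for miR-410 (r = 0.10).

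Over all 24 arrays the 6 correlated with each other at 0.93 to 0.997 (median 0.97 over 15 pairs). All of these points share the ages, the scaling and the floor. Within days 1, 4 and 7, with each age's mean removed, the same 15 pairs ranged from -0.58 to 0.98, with a median of 0.39. The 4 pairs below 0 were those of miR-154* with miR-541, miR-409-5p, miR-409-3p and miR-369-5p, and the highest was that of miR-409-5p with miR-369-5p (0.98).

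Of 10 other strands of the same 8 hairpins, 5 were on the array and could be measured. miR-154, the 5p partner of miR-154*, was detected on all 24 arrays and averaged 458 ± 40.2 on day 1 (SD, n = 5). Its means went down to 323 ± 33.3 on day 4, 259 ± 23.9 on day 7 and 129 ± 42.7 on day 14, and the 4 arrays of day 42 averaged 46.1 ± 16.9. It fell by 3.38 ± 0.20 from day 1 to day 42 on the log2 scale, measured at both ages, so 1 strand of this hairpin could be followed to 6 weeks while the other could not. miR-377, also detected on all arrays, averaged 391 ± 141 on the 5 arrays of day 1 and 25.3 ± 10.5 on the 4 arrays of day 42 (SD), a change of -3.94 ± 0.28. miR-496 was detected on 17 arrays, 2 of 5 at day 14 and 0 of 4 at day 42, and changed by -1.90 ± 0.20 from day 7 to day 14 with day 14 replicate 5 included. miR-369-3p was detected on 3 arrays and miR-412 on none, so neither was tested.

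Beside the 6, the Dlk1-Dio3 region is on the array with 65 names, of which 36 were tested and 24 were detected on no array. These include the 5 other strands described above, 3 of them tested. From day 1 to day 42, 35 of the 36 fell and 0 rose, with a median of -3.34. From day 7 to day 14, 34 fell and 0 rose (median -1.37), and 34 fell without day 14 replicate 5 as well (median -1.55). From day 1 to day 7, 16 fell and 0 rose (median -0.60). That count was 20 without day 14 replicate 5, and 7 when the model held array brightness. From day 14 to day 42, 27 fell and 0 rose (median -1.41), and 27 fell without day 14 replicate 5. The 36 share the locus, the arrays and the reference ages with the 6, so their falls are not separate evidence. The summed signal of all 65 names had a median of 12280.1 at day 1 and 1576 at day 42.

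Among the 316 other tested miRNAs, those whose course over 24 arrays was most like the mean log2 level of the 6 were miR-431 (r = 0.997), miR-411* (r = 0.996), miR-495 (r = 0.983), miR-487b (r = 0.983), miR-154 (r = 0.981) and miR-382 (r = 0.981). All of them belong to the same region. An r over 0.9 was reached by 45 of the 316, of which 28 were on the Dlk1-Dio3 list. The most opposite courses were those of miR-29c* (r = -0.975), miR-29a (r = -0.971) and miR-29c (r = -0.967), members of a family known for targeting collagen and other matrix messages. miR-29a averaged 1285 on day 1 and 1434 on day 7, then 5296 on day 14 and 17584 on day 42.

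Markers of cell types were followed over the same ages. The summed signal of 5 mesenchyme and smooth muscle miRNAs ranged from 18790.2 to 25067 at day 1 and from 11990 to 14732 at day 42, and 3 of the 5 fell while 0 rose from day 1 to day 42, where 42.9% of all tested miRNAs fell. In the step from day 7 to day 14, 2 of these 5 fell, where 23.9% of all tested did, so these counts lie near the background. The summed signal of 6 leukocyte miRNAs ranged from 4980 to 8622 at day 1 and from 12673 to 15805 at day 42, and all 6 rose, where 61 of 322 tested miRNAs did. Of 6 epithelial miRNAs 0 fell and 1 rose, and both endothelial miRNAs rose. The day 14 array that stands apart had the highest mesenchyme sum (19624) and the lowest leukocyte sum (7549) of its age. The part of these shifts in the fall of the 6 was not tested.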

How the data were processed

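The deposited array files hold intensity values from Agilent Feature Extraction 10.7.1.1, per the file headers and the submitters' processing notes, background-subtracted per spot by the authors' software and not adjusted between arrays. The deposited series table holds log2 values with the same median, 2.41, in each column; it was used as an alternative, and how the authors made it is not given in the sources used here. Per the labels, 100 ng of total RNA was labelled with Cy3. From the spot intensity, outlier spots (319 to 523 per array) were left out, spots averaged, probes summed, arrays scaled to the 75th percentile of 228 miRNAs and floored at 7.24. Detection, not read depth, limits precision, and the number of arrays limits it further.

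limma 3.58.1 (R 4.3.3) fitted 1 model over 24 arrays (19 residual degrees of freedom), with Benjamini-Hochberg adjustment over 322 miRNAs (those that some age detected on all its arrays) within each comparison and a threshold of 0.05; the pipeline was tested on simulated data. Where the later age had no detected array, the fold is a bound, with each such array at the highest of the floor, its own signal and the lowest signal of a detected miRNA on it. That lowest signal is of any miRNA, so the bound does not rest on the detection limit of the miRNA itself. The adjusted p beside a bound is that of the fit on floored values. The strand ratio used exact permutation tests (scipy 1.17.1), two-sided. Values after ± are SE of the fit unless SD is named. The p-values measure the spread between these arrays. Normexp used the median spot signal, since the files hold no mean signal column. The members, the lists and the rule for named miRNAs (the 6, the other strands of their hairpins, and the miRNAs most and least like them over the arrays) were chosen with earlier results of these data known. Alternatives covered scaling, background, signal, floor, filter, block, covariate and single arrays. The adjustment of the strand ratio over 4 exact permutation tests counted day 42, which has no value, as p = 1.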

Additional observations from a re-analysis of the deposited data

Results flagged for a closer look

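Of 28 groups of arrays of 4 or 5 that were checked (a miRNA at an age), 5 held an array whose gap to the nearest other array was past Dixon's 95% limit. Chance flags about 1 in 20 independent groups, but here 3 of the 5 are the same array and the other 2 follow from the floor, so the number is not a count of separate events. Day 14 replicate 5 was far above the other 4 day 14 arrays for miR-154* (log2 5.2416, others 3.43 to 3.85), miR-541 (5.2165, others 3.41 to 3.76) and miR-409-3p (4.4787, others 2.86 to 3.14). For miR-409-5p, miR-369-5p and miR-410 the same array was also the highest of its age but within the limit. At day 42, replicate 1 of miR-154* (2.9755) and replicate 4 of miR-369-5p (3.0412) stood above 3 arrays that were all at the floor of 2.86; neither was detected.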

How the results depend on the processing

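All 6 fell from day 1 to day 42 under all alternatives run, and without any 1 array. The larger moves of counts elsewhere are as follows, and except where named, the cause was not tested. Smaller moves were seen too. Over the 5 ages, 4 to 6 of the 6 changed across the alternatives. Quantile normalization and slide as a block each gave 4 for day 7 against day 1, where 33 and 26 of the 322 tested miRNAs fell. For day 7 against day 1 (5 called), 0 were called with no scaling and with normexp, 3 with a floor 2 times lower, 3 in the authors' deposited table, 2 with brightness as a covariate, 2 without the 5 arrays highest on the second principal component (chosen after seeing the data) and 3 to 6 leaving out 1 array. For day 4 against day 1 (0 called), quantile normalization gave 1 (3 of the 322 fell) and leaving out 1 array 0 to 4. Normexp gave 1 for day 14 against day 1 (18 of the 322 fell), 0 for day 14 against day 7 (3) and 0 for day 42 against day 14 (19). On 2 arrays the normexp fit was thrown by a spot of very high local background (76838 and 110003). That background was then held at its 99th percentile, chosen after seeing the data. The 3 counts of the 6 became 6, 5 and 0, and that for day 7 against day 1 was 6. Day 42 against day 14 (5 called) gave 3 with a floor 2 times higher (73 of the 322 fell) and 4 with quantile normalization (57). It gave 6 with no scaling, with a floor 2 times lower, with the software's total signal and in the deposited table.

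Directions turned in these cases. For day 14 against day 7, normexp gave 0.0094 for miR-154*, 0.0065 for miR-541, 0.057 for miR-409-5p, 0.12 for miR-409-3p and 0.073 for miR-369-5p. For day 7 against day 4, no scaling gave 0.069 for miR-541, 0.065 for miR-409-5p and 0.20 for miR-410, and miR-154* took -0.018 with median scaling, -0.20 with normexp, -0.23 with the background held, -0.030 with brightness, -0.051 without the 5 arrays and -0.030 to 0.080 leaving out 1 array. For day 7 against day 1, miR-154* was 0.18 with no scaling.

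The strand ratio at day 14 was -0.19 (exact permutation p = 0.27) with a higher floor and -0.98 to -0.81 leaving out 1 array, and at day 4 it ran from -0.070 to 0.085. With the replicate number as a block (replicate block) it was -0.88 (exact permutation p = 0.0625, the smallest 5 pairs allow), and the counts of called miRNAs stayed at 6, 6, 5, 0, 0, 6 and 5. The labels do not say that a number is shared between ages. Deviations of same-numbered arrays correlated at -0.86 to 0.84 (median -0.02, 18 of 46 over 0.1). Those of different-numbered arrays correlated at -0.92 to 0.90 (median -0.01, 81 of 184 over 0.1). Whether the numbers pair the arrays was not tested. Of all calls from day 1 to day 42, 30.7% were rises; this share was 51.3% after scaling by the median, 61.6% by the percentile of all names, 57.2% on quantile-normalized values, 60.2% on the deposited log2 values and 71.4% unscaled, where the median of all tested moved from -0.35 to 0.64.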

Other observations

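The 5 arrays highest on the second principal component (22.0% of the variance, the first holding 62.8%) were day 1 replicates 4 and 5, day 4 replicates 1 and 3 and day 42 replicate 4, with 75th percentiles of 923, 1099, 1189.5, 1551 and 1727 intensity units before scaling. Striated muscle miRNAs summed to a median of 834 at day 1, with 1 array at 37184. The liver miRNA miR-122 reached 789 on 1 day 7 array, against a median of 10.6 at that age.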
